A study of Macaca mulatta with 8 samples.

Results

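The genes described here encode receptors, and their partners, with which microglia recognise and take up particles, dying cells and modified lipoproteins. The set was fixed by gene symbol and holds TREM2, TYROBP, AXL, MERTK, GAS6, CD36, MSR1, MARCO, CD68 and CD163. All 10 were found, each as 1 row, among the 35432 genes of the deposited count tables. RNA was sequenced from 8 libraries of primary rhesus macaque microglia isolated from the frontal subcortical white matter of 4 adult animals. R07110 and R12016 were male, R02046 and R14143 female. Each animal gave 1 library with ultrapure LPS (uLPS), a ligand of Toll-like receptor 4, at 10 µg/mL for 16 h, and 1 library with the same uLPS after 1 h of pre-incubation with 5 µM MRS2578, an antagonist of the P2Y6 receptor that is described as selective but not entirely specific and was dissolved in DMSO. All cells were grown for 8 days in medium with serum and M-CSF, for which the labels give 10 ng/mL and the methods of the study another concentration, and were exposed on day 7. No library without uLPS was analysed here, so the levels below are those of stimulated microglia, and the comparison is of uLPS with MRS2578 against uLPS alone within each animal.

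Microglia are the macrophages of the brain parenchyma, and they clear debris through several families of receptors. TREM2 binds lipids and lipoproteins and signals through the adaptor TYROBP. The TAM receptors AXL and MERTK are tyrosine kinases that see phosphatidylserine on dying cells through bridging proteins, GAS6 for both and PROS1 for MERTK. CD36, MSR1 and MARCO are scavenger receptors for modified lipoproteins, fibrils and microbes. CD68 is a lysosomal glycoprotein of the LAMP family that marks phagocytic macrophages, and CD163 takes up complexes of hemoglobin and haptoglobin. P2RY6, the target of MRS2578, is a receptor for extracellular UDP and is known for its role in phagocytosis by microglia, which is the reason to look at these genes in this comparison.

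The libraries held between 9231109 and 32790348 counted reads, of which the 10 genes took 0.276% to 0.365%. Values are CPM, the usual unit of a gene's count relative to the total of its library, scaled by TMM, a method that corrects library sizes for differences in composition. For R02046, the labels of the libraries and the study disagree, and which is right was not settled. In a supplementary table of the study, 6 of 8 columns of CPM are proportional to the library with the same label, while the 2 columns of R02046 are each proportional to the library that carries the opposite condition. None of the 10 genes is in that table. Each fitted difference between the conditions is therefore given with the labels as deposited, with the R02046 libraries exchanged, and without R02046. Each animal gave a single culture per condition, so that p-values measure the spread between these 4 pairs. The test also draws the variance of each gene towards the trend over all genes.

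The cells carried the macrophage genes of the microglia list, with CSF1R at 1007 to 1471 CPM and SPI1 at 403 to 572 CPM in the 8 libraries, while markers of resting microglia were low. TMEM119 was listed at 0 in 4 of the 8 libraries and reached at most 0.316 CPM, CX3CR1 lay between 0.0508 and 2.21 CPM, and P2RY12 lay between 5.70 and 13.3 CPM. Of the 11 microglia markers, 9 passed the filter on low counts. Of the 7 monocyte markers 3 passed it, among them CD14 at 4768 to 7646 CPM, while S100A8 and S100A9 were listed at 0 in 7 of the 8 libraries. Of the 6 markers of perivascular or border macrophages 4 passed, with MRC1 at 305 to 497 CPM and CD209 at no more than 0.126 CPM.

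Compared per kilobase of exon, the receptor genes fell into an abundant and a less abundant group. The lengths join all exons of a gene in NCBI's annotation, while the gene models used for counting carry Ensembl identifiers. How far close levels depend on these lengths was not tested. CD68 was highest, with a mean of 566 ± 115 CPM per kb (SD over the 8 libraries). CD163 followed at 254 ± 17.0, TYROBP at 239.5 ± 52.9 and MSR1 at 206 ± 17.6 CPM per kb. These 4 genes were higher than 97.9% or more of the 10596 tested genes that have an annotated length. AXL had a mean of 27.2 ± 15.8, TREM2 of 16.7 ± 6.93, CD36 of 10.4 ± 8.41, MERTK of 7.65 ± 2.78 and GAS6 of 7.61 ± 3.95 CPM per kb, which places them between the percentiles 48.2 and 78.8 of the same genes. MARCO was far below them at 0.264 ± 0.355 CPM per kb. In this order, every library of CD68 was above every library of CD163, every library of MSR1 was above every library of AXL, and every library of GAS6 was above every library of MARCO. All other neighbours overlapped in their ranges. Some genes further apart in the order, or within the same libraries, were still distinct: every library of AXL was above every library of MERTK, and CD163 was above MSR1 within each of the 8 libraries. AXL and TREM2 were likewise above GAS6 within each of the 8 libraries. CD163 and TYROBP, CD36 and GAS6, and MERTK and GAS6 each took the higher place in 4 of the 8 libraries, so that no order was seen within these pairs. TREM2 was thus at a small part of the length-scaled level of its adaptor TYROBP, which also serves other receptors.

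**Figure D1:**
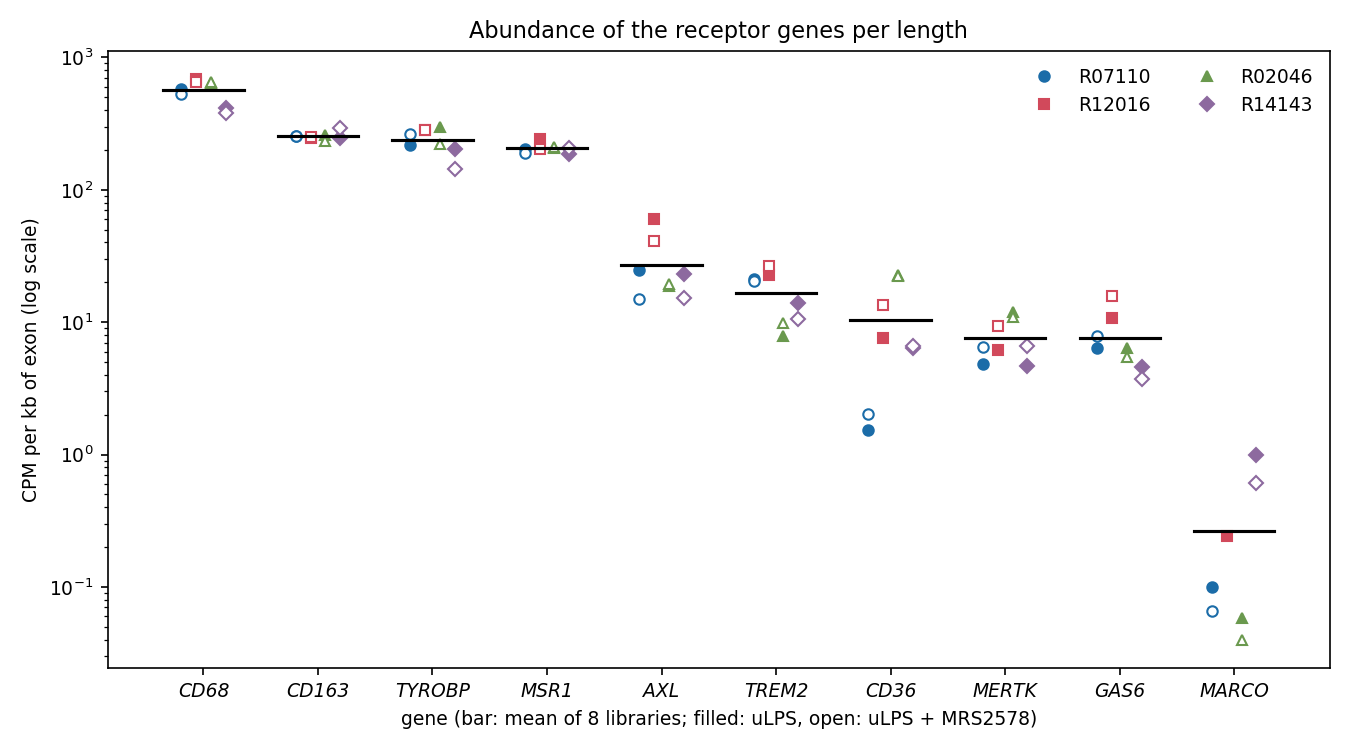
CPM per kb of exon, on a log axis, of each of the 10 genes in the 8 libraries, with filled symbols for uLPS, open symbols for uLPS with MRS2578 and a bar for the mean. CD68, CD163, TYROBP and MSR1 lie above all libraries of the other 6 genes, and the MARCO library with 0 reads is not drawn.

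Of the 9 genes that could be tested, the TAM receptors had the smallest p with MRS2578, and their differences had opposite signs. AXL was lower and MERTK higher with MRS2578 in R07110, R12016 and R14143, each beyond the counting error of the pair, while the pair of R02046 differed in neither gene beyond it. Under the labels as deposited, both had an adjusted p of 0.878 across all genes (edgeR's quasi-likelihood test), so that neither passed the threshold. The plot of CPM by donor shows both patterns, with the R02046 libraries joined by a dashed line.

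**Figure D2:**
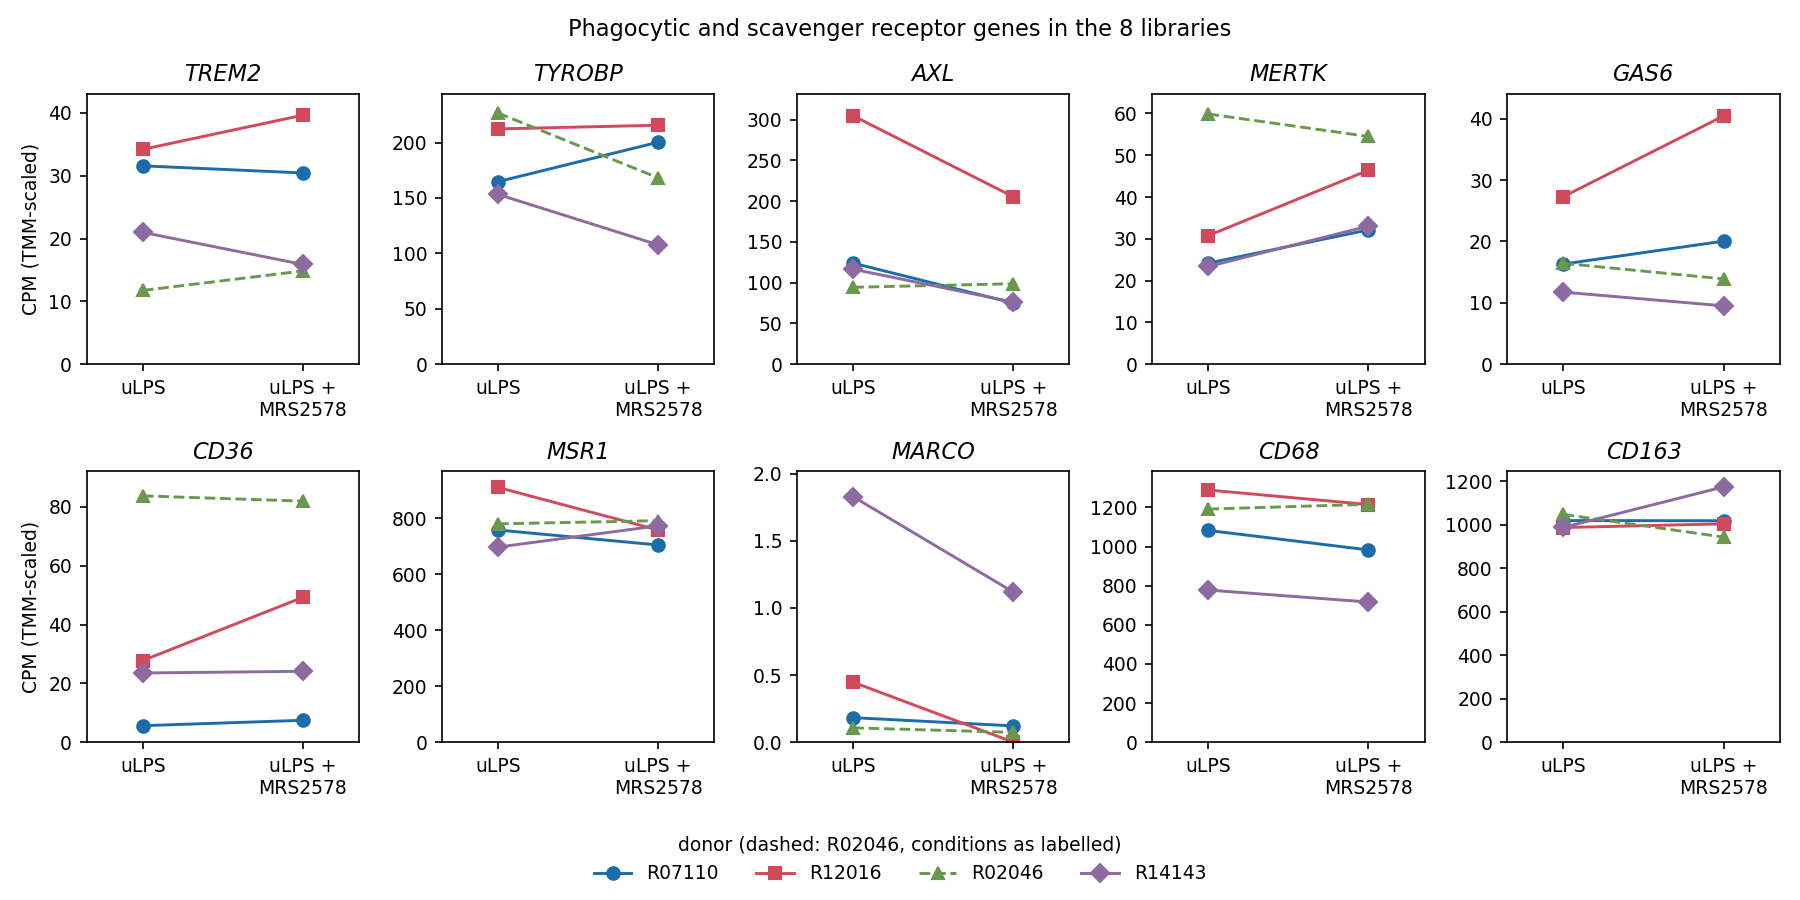
TMM-scaled CPM of each gene with uLPS and with uLPS and MRS2578, with a line for each donor and a dashed line for R02046 with its conditions as labelled. The lines of AXL go down and those of MERTK go up in R07110, R12016 and R14143, while the donors stay apart in CD36.

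AXL (ENSMMUG00000009145, chr19:40458531-40504554 of Mmul_10, plus strand) is a TAM receptor kinase that inflamed macrophages are known to carry. With uLPS it was at 124 CPM in R07110, 305 CPM in R12016, 94.3 CPM in R02046 and 117 CPM in R14143. With MRS2578 it was at 74.9, 205, 98.7 and 76.2 CPM in the same donors. R12016 was the highest donor in both conditions, and the ranges of the conditions overlapped. The means were 160 ± 97.4 CPM with uLPS and 114 ± 62.0 CPM with MRS2578 (SD, n = 4). Within donors, the log2 ratio of MRS2578 to uLPS was -0.73 in R07110, -0.57 in R12016 and -0.61 in R14143, against 0.06 in R02046, whose 95% counting interval ran from -0.06 to 0.19. Fitted over all donors, the log2 fold change of AXL was -0.46 ± 0.14 (SE; 95% interval -0.81 to -0.12), with an unadjusted p of 0.0148 and an adjusted p of 0.878. With the R02046 libraries exchanged it was -0.50 ± 0.12 (adjusted p = 0.105), and without R02046 it was -0.64 ± 0.09 (adjusted p = 0.124).

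MERTK (ENSMMUG00000010066, chr13:15115927-15252511, plus strand) is the TAM receptor known for uptake of apoptotic cells by resting macrophages. With uLPS it was at 24.2 CPM in R07110, 30.8 CPM in R12016, 59.9 CPM in R02046 and 23.4 CPM in R14143. With MRS2578 it was at 32.2, 46.4, 54.5 and 33.0 CPM in the same donors. R02046 was the highest donor in both conditions, and the conditions overlapped. The means were 34.5 ± 17.2 CPM with uLPS and 41.5 ± 10.8 CPM with MRS2578 (SD, n = 4). The log2 ratio within donors was 0.41 in R07110, 0.59 in R12016 and 0.50 in R14143, and -0.14 in R02046 with a 95% counting interval of -0.30 to 0.02. For MERTK the fit gave a log2 fold change of 0.34 ± 0.14 (SE; unadjusted p = 0.0479, adjusted p = 0.878) as labelled. It was 0.41 ± 0.11 (adjusted p = 0.129) with the R02046 libraries exchanged and 0.50 ± 0.11 (adjusted p = 0.180) without R02046.

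The balance of both receptors differed accordingly. The ratio of AXL to MERTK in CPM, which is not scaled by length, was 5.12 with uLPS and 2.33 with MRS2578 in R07110, 9.91 and 4.42 in R12016, and 4.98 and 2.30 in R14143. In R02046 it was 1.58 and 1.81 as labelled, the lowest pair of uLPS and MRS2578 values of any donor. This ratio was chosen after its values were seen and was not tested.

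GAS6 (ENSMMUG00000007428, chr17:94979589-95026288, minus strand) encodes the bridging ligand of these receptors. With uLPS it was at 16.3 CPM in R07110, 27.3 CPM in R12016, 16.4 CPM in R02046 and 11.7 CPM in R14143, and with MRS2578 at 20.1, 40.5, 13.9 and 9.51 CPM. It was thus higher with MRS2578 in R07110 and R12016 and lower in R14143, beyond the counting error in each, and the conditions overlapped. For GAS6 the fit gave a log2 fold change of 0.10 ± 0.18 (SE; 95% interval -0.33 to 0.52; adjusted p = 0.951), 0.22 (adjusted p = 0.528) with the R02046 libraries exchanged and 0.21 (adjusted p = 0.691) without R02046. In the annotation, 474 exon bases of GAS6 (18.5% of its exon length) are shared with the long noncoding RNA LOC114673494 on the opposite strand, and the strand setting of the counting is not given in the sources used here. The other 9 genes share no exon base with another gene in this annotation, which is NCBI's. The gene models used for counting, which carry Ensembl identifiers, were not checked for overlaps.

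PROS1, the other bridging protein of MERTK, had a mean of 66.2 ± 11.0 CPM with uLPS and 67.2 ± 10.9 CPM with MRS2578. Its log2 fold change was 0.02 as labelled (adjusted p = 0.984, edgeR's quasi-likelihood test). Its value was -0.03 with the R02046 libraries exchanged and -0.00904 without R02046. TYRO3, the remaining TAM receptor, was low but passed the filter on low counts. In R07110 it stood at 0.579 CPM without and at 3.32 CPM with MRS2578, followed by 1.02 and 2.53 CPM in R12016, 1.49 and 1.32 CPM in R02046, and 0.407 and 1.23 CPM in R14143. The values of TYRO3 were thus higher with MRS2578 in the donors in which those of MERTK were, at 1.45 ± 0.46 (SE) on the log2 scale, which did not pass the test (adjusted p = 0.878). It was 1.56 (adjusted p = 0.124) with the R02046 libraries exchanged and 1.91 (adjusted p = 0.166) without R02046. With the exchange, TYRO3 rose in the likelihood ratio test (adjusted p = 0.0339) and missed the threshold in DESeq2 (adjusted p = 0.104).

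TREM2 and TYROBP showed no common direction with MRS2578. TREM2 (ENSMMUG00000013920, chr4:128214680-128248374, plus strand) was at 31.6 CPM in R07110, 34.2 CPM in R12016, 11.7 CPM in R02046 and 21.0 CPM in R14143 with uLPS. With MRS2578 it was at 30.5, 39.7, 14.8 and 15.9 CPM in these donors. The order of the donors separated R07110 and R12016 from R02046 and R14143 in both conditions, while the conditions overlapped. The log2 ratio within donors ran from -0.40 in R14143 to 0.34 in R02046. Over all donors the log2 fold change of TREM2 was 0.02 ± 0.15 (SE; 95% interval -0.33 to 0.37; adjusted p = 0.992). It was -0.13 (adjusted p = 0.695) with the R02046 libraries exchanged and -0.08 (adjusted p = 0.871) without R02046, so that its sign depends on R02046.

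TYROBP (ENSMMUG00000008004, chr19:35319528-35323792, minus strand), the signaling adaptor, was at 165 CPM in R07110, 212 CPM in R12016, 227 CPM in R02046 and 153 CPM in R14143 with uLPS. With MRS2578 it was at 200.3, 216, 168 and 108 CPM. Its values were lower with MRS2578 in R02046 and R14143 and higher in R07110, beyond counting error, and the conditions overlapped. The fit gave TYROBP a log2 fold change of -0.16 ± 0.15 (SE; 95% interval -0.51 to 0.20; adjusted p = 0.906). It was 0.06 (adjusted p = 0.884) with the R02046 libraries exchanged and -0.07 (adjusted p = 0.898) without R02046.

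Among the scavenger receptors, CD36 (ENSMMUG00000042946, chr3:125511890-125589378, minus strand), which binds oxidised lipoproteins and long-chain fatty acids, varied most between animals. With uLPS it was at 5.60 CPM in R07110, 27.8 CPM in R12016, 83.8 CPM in R02046 and 23.5 CPM in R14143, and with MRS2578 at 7.44, 49.3, 82.0 and 24.1 CPM. The pair of R02046 was the highest and the pair of R07110 the lowest, whichever way the R02046 libraries are assigned. The log2 ratio within donors was 0.41 in R07110 and 0.83 in R12016, both beyond counting error, and -0.03 in R02046 and 0.03 in R14143, both within it. For CD36 the fitted value was 0.31 ± 0.16 (SE; 95% interval -0.08 to 0.69; adjusted p = 0.878). It was 0.32 (adjusted p = 0.344) with the R02046 libraries exchanged and 0.43 (adjusted p = 0.381) without R02046.

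MSR1 (ENSMMUG00000002296, chr8:16210529-16296185, minus strand), the class A scavenger receptor, was at 759 CPM in R07110, 911 CPM in R12016, 781 CPM in R02046 and 698 CPM in R14143 with uLPS. With MRS2578 it was at 705, 759, 792 and 774 CPM. All 8 libraries of MSR1 lay within 1.31-fold of each other and the conditions overlapped. The fit gave MSR1 a log2 fold change of -0.05 ± 0.12 (SE; 95% interval -0.33 to 0.23; adjusted p = 0.959), -0.06 with the R02046 libraries exchanged and -0.07 without R02046.

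MARCO (ENSMMUG00000002610, chr12:12123985-12183414, minus strand), a class A scavenger receptor known from alveolar and marginal zone macrophages, was barely detected. With uLPS, 6 reads were counted in R07110, 7 reads in R12016, 1 read in R02046 and 36 reads in R14143, and with MRS2578 the counts were 3, 0, 1 and 20. In CPM, R14143 was at 1.83 with uLPS and at 1.12 with MRS2578, above the other 6 libraries, which lay at or under 0.447 CPM. MARCO did not pass the filter on low counts and was not tested. As labelled, its CPM was lower with MRS2578 in 4 of 4 donors, but the pair of R02046 is 1 read against 1 read and takes the opposite sign when its libraries are exchanged. The difference in R12016, 7 reads against 0, was beyond the counting error of the pair (upper limit -0.54 on the log2 scale), while those of the other 3 pairs were within it. A count of 0 allows up to 3 reads, or 0.0915 to 0.325 CPM across these libraries.

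CD68 and CD163 did not pass the test with MRS2578, and their differences within donors were at most 0.25 on the log2 scale. CD68 (ENSMMUG00000013501, chr16:7355811-7358448, plus strand) was at 1082 CPM in R07110, 1289 CPM in R12016, 1192 CPM in R02046 and 777 CPM in R14143 with uLPS, and at 983, 1214, 1216 and 716 CPM with MRS2578. R14143 was the lowest donor in both conditions, and the conditions overlapped. Within donors, the log2 ratio was -0.14 for R07110, -0.09 for R12016, -0.12 for R14143 and 0.03 for R02046. CD68 had a fitted log2 fold change of -0.08 ± 0.11 (SE; 95% interval -0.34 to 0.19; adjusted p = 0.935), -0.09 with the R02046 libraries exchanged and -0.12 without R02046.

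CD163 (ENSMMUG00000005150, chr11:7681166-7715949, minus strand), the hemoglobin scavenger receptor, was at 1019 CPM in R07110, 987 CPM in R12016, 1047 CPM in R02046 and 988 CPM in R14143 with uLPS. With MRS2578 it was at 1018, 1004, 943 and 1174 CPM. The uLPS libraries were close together, at 1010.0 ± 28.8 CPM (SD, n = 4), and lay inside the range of the MRS2578 libraries. CD163 had a fitted log2 fold change of 0.03 ± 0.12 (SE; 95% interval -0.26 to 0.32; adjusted p = 0.981). It was 0.11 with the R02046 libraries exchanged and 0.09 without R02046.

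Over the 9 genes that passed the filter, 5 had a log2 fold change above 0 and 4 below, with a median of 0.02, where the median of all 12131 genes tested was -0.01 and 52.1% of them were below 0. After the exchange of the R02046 libraries, 5 were above and 4 below 0 (median 0.06), where 49.8% of all genes were below 0. Without R02046, 4 were above and 5 below 0 (median -0.07), where 50.5% of all genes were below 0. Under the deposited labels, 0 of the 9 passed an adjusted p of 0.05 (edgeR's quasi-likelihood test), as did 0.0% of all genes tested. With the R02046 libraries exchanged, 0 of the 9 passed, against 0.618% of all genes, and without R02046, 0 of the 9 against 0.0%. At an unadjusted p of 0.05, AXL and MERTK passed under each of the 3 assignments, that is 2 of 9, against 5.14%, 16.4% and 13.6% of all genes in the same order. The DESeq2 test and edgeR's likelihood ratio test called neither gene with the labels as deposited, where they called 0.00824% and 0.0412% of all genes. With the R02046 libraries exchanged, AXL fell in both tests (adjusted p = 0.0101 in DESeq2 and 0.0151 in the likelihood ratio test), and MERTK rose in the likelihood ratio test (adjusted p = 0.0439) but missed the threshold in DESeq2 (adjusted p = 0.059). With this exchange DESeq2 called 4.81% and the likelihood ratio test 5.08% of all genes, against 1 and 2 of the 9 receptor genes.

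In none of the 9 genes did the conditions separate completely, against 1.08% of all genes with the labels and 2.97% with the R02046 libraries exchanged. AXL, MERTK, CD36 and CD68 had the same direction in R07110, R12016 and R14143, which is 4 of 9, where 36.8% of all genes did. The 95% intervals of MSR1, CD68 and CD163 with the labels stayed within -0.34 and 0.32 on the log2 scale, and those of TREM2, TYROBP, GAS6 and CD36 reached further.

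**Figure D3:**
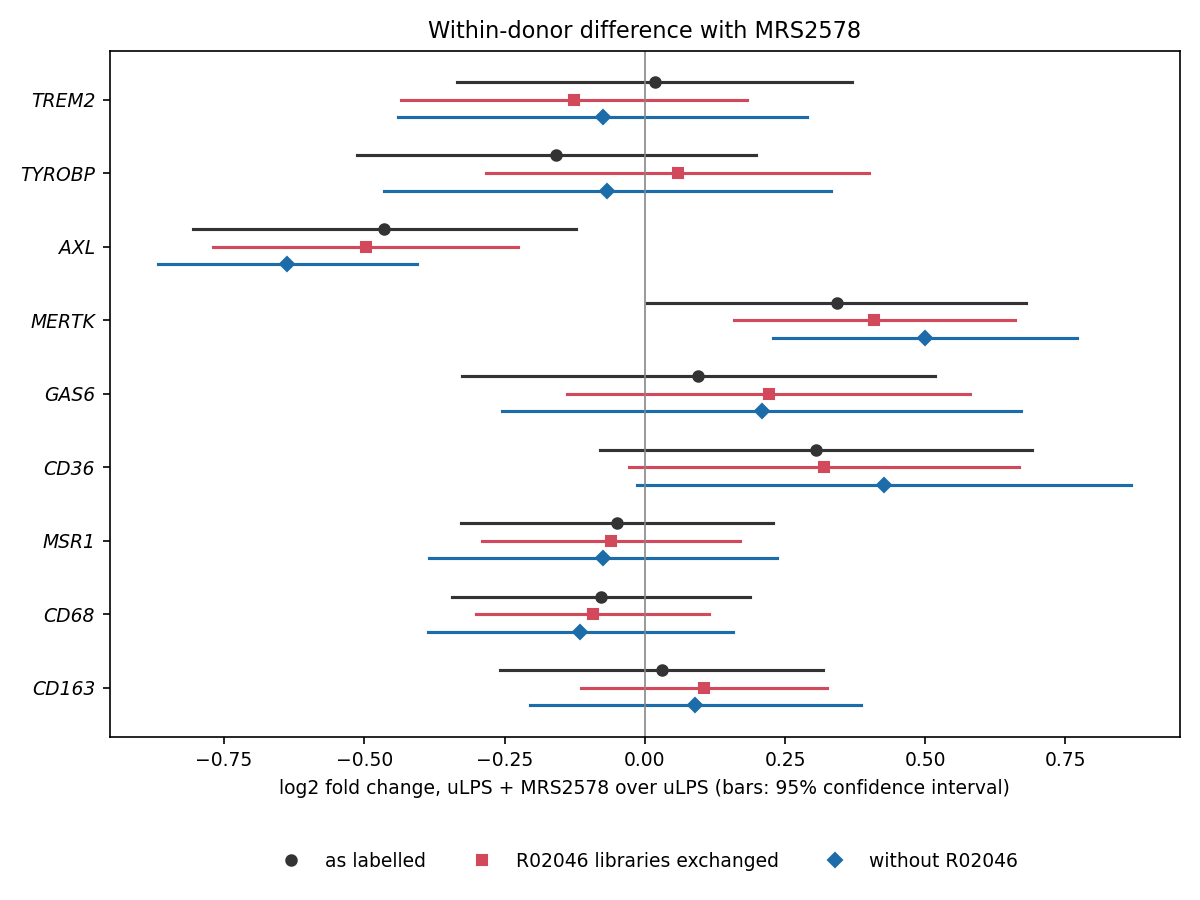
Fitted log2 fold change of uLPS with MRS2578 over uLPS, with its 95% confidence interval, for the 9 tested genes under the 3 treatments of the R02046 libraries. The intervals of AXL and MERTK stay on one side of 0 in each case, those of the other 7 genes include 0, and the points of TREM2 and TYROBP change side.

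P2RY6 (ENSMMUG00000003138, chr14:66294290-66320952, plus strand), the target of MRS2578, was transcribed in all libraries. With uLPS it was at 69.1 CPM in R07110, 52.6 CPM in R12016, 68.0 CPM in R02046 and 98.5 CPM in R14143, and with MRS2578 at 52.0, 49.5, 79.9 and 109.9 CPM. R14143 was the highest and R12016 the lowest donor in both conditions, and the conditions overlapped. It did not pass the test with MRS2578 (-0.03 ± 0.13 on the log2 scale, adjusted p = 0.986). The value was -0.14 (adjusted p = 0.570) with the R02046 libraries exchanged and -0.11 (adjusted p = 0.769) without R02046. P2RY6 differed between the donors under each of these assignments (adjusted p = 0.0496, 0.0121 and 0.0355 in this order). An antagonist acts on the receptor protein, so the level of P2RY6 RNA does not check the labels.

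More of these genes differed between the animals than between the conditions. In the same fit, the levels differed between donors in CD36 (adjusted p = 0.00333), AXL (adjusted p = 0.0164), TREM2 (adjusted p = 0.0249), GAS6 (adjusted p = 0.0351) and MERTK (adjusted p = 0.0474), each from the joint quasi-likelihood test of the donor terms. This is 5 of 9 genes, where 7.35% of all genes tested did. With the R02046 libraries exchanged, CD68 was added (adjusted p = 0.0187), giving 6 of 9 against 18.9%, and without R02046 only AXL, CD36 and GAS6 differed, 3 of 9 against 7.39%. Each donor is a single animal and a single isolation, so that the animal, its age and sex and its culture cannot be told apart.

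**Figure D4:**
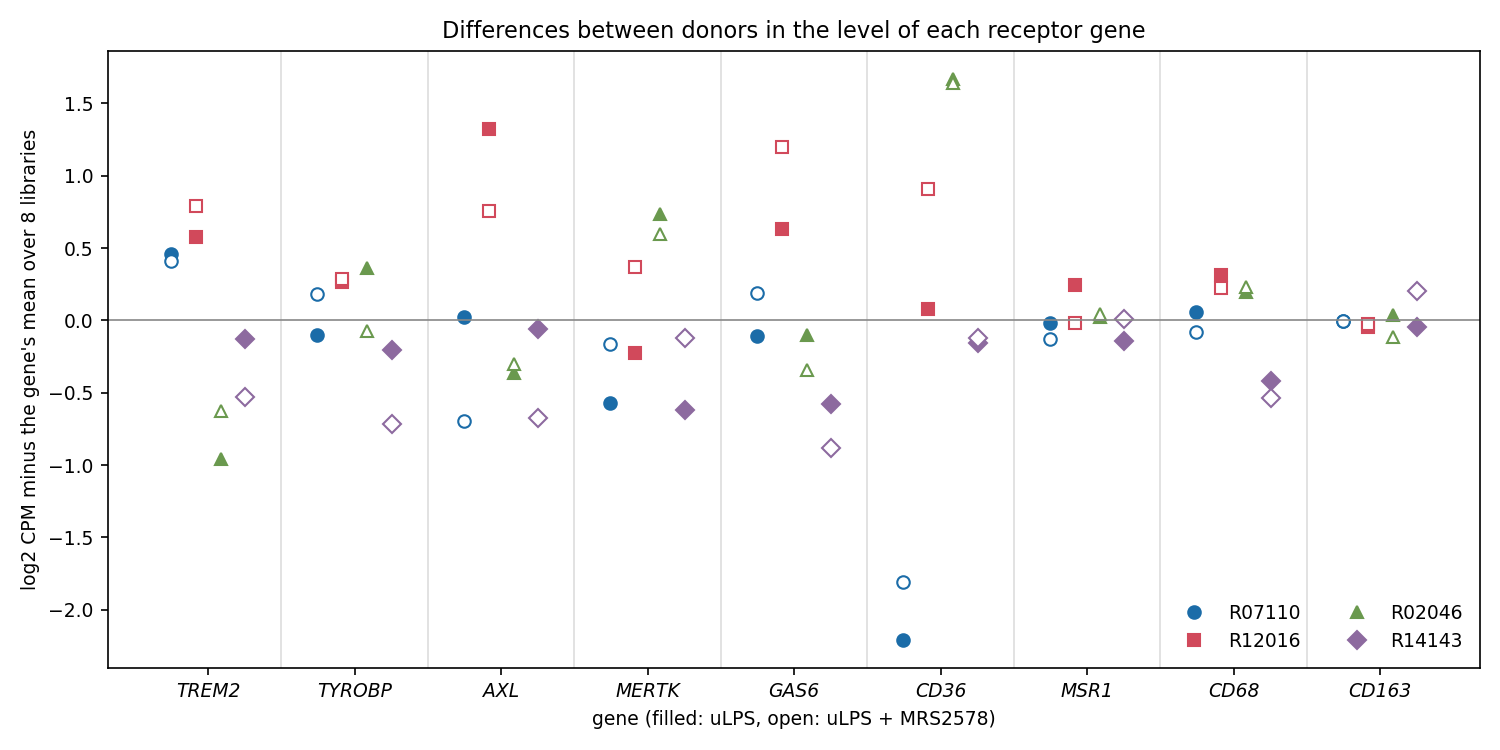
log2 CPM of each library minus the mean of the gene over the 8 libraries, by gene and donor, with filled symbols for uLPS and open symbols for uLPS with MRS2578. CD36 spreads over more than 3 log2 units between R07110 and R02046, R12016 is high in AXL and GAS6, and CD163 and MSR1 lie close to 0 in all donors.

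The donor means of CD36 were 6.52 CPM in R07110, 23.8 CPM in R14143, 38.5 CPM in R12016 and 82.9 CPM in R02046, a range of 12.6-fold. CD36 differed between donors in all 15 alternative analyses of the donors. AXL had donor means of 255 CPM in R12016 and of 96.3 to 99.4 CPM in the other 3 donors, and it did not pass without R12016 (adjusted p = 0.978). GAS6 had donor means from 10.6 CPM in R14143 to 33.9 CPM in R12016, a range of 3.13-fold, and it did not pass without R12016 (adjusted p = 0.189) or without R14143 (adjusted p = 0.0864). TREM2 had donor means from 13.3 CPM in R02046 to 36.9 CPM in R12016, a range of 2.78-fold. TREM2 did not pass without R07110 (adjusted p = 0.0508), without R12016 (adjusted p = 0.0642) or without R02046 (adjusted p = 0.0548).

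MERTK had its highest donor mean in R02046, at 57.2 CPM, and means between 28.2 and 38.6 CPM in the other donors. It did not pass without R07110, R12016, R02046 or R14143 (adjusted p = 0.0994, 0.0528, 0.136 and 0.0963). The donors that were high thus differed by gene: R12016 in AXL, GAS6 and TREM2, and R02046 in CD36 and MERTK. CD163 had donor means within 1.08-fold of each other (adjusted p = 0.915) and MSR1 within 1.14-fold (adjusted p = 0.737). CD68 was at 747 CPM in R14143 and at 1032 to 1252 CPM in the other donors (adjusted p = 0.0785), and TYROBP at 130.5 CPM in R14143 and at 182 to 214 CPM in the others (adjusted p = 0.176).

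In bulk RNA, fewer cells of a type and less RNA per cell cannot be told apart. Genes listed as markers of other cells also had donor means that varied. The summed level of the 6 fibroblast markers was 868 CPM in R14143, 501 CPM in R02046, 246 CPM in R07110 and 199 CPM in R12016 (donor means). It ranged from 136 to 1261 CPM with uLPS and from 261 to 579 CPM with MRS2578, and all 6 markers passed the filter, with COL1A1 at 41.3 to 512 CPM. In R14143, COL1A1 was at 512 CPM with uLPS and at 178 CPM with MRS2578, so its donor mean leaned on the uLPS library. With the labels and without R02046, 0 of the 6 differed between donors in the joint quasi-likelihood test, against 7.35% and 7.39% of all genes. With the exchange, 4 of the 6 did, against 18.9%. AXL, GAS6 and TREM2 were highest in R12016, where the fibroblast markers were lowest. The 6 astrocyte markers summed to 88.7 to 205 CPM with uLPS and to 112 to 190 CPM with MRS2578, and the 6 endothelial markers to 59.0 to 160 and 51.4 to 143 CPM. Both lists were highest in R12016, the donor highest in AXL, GAS6 and TREM2, and lowest in R02046. The astrocyte markers had donor means of 197 CPM in R12016, 163 CPM in R14143, 117 CPM in R07110 and 100.3 CPM in R02046. Those of the endothelial markers were 151 CPM in R12016, 111 CPM in R07110, 82.8 CPM in R14143 and 55.2 CPM in R02046. With the labels, 3 of the 6 endothelial and 4 of the 6 astrocyte markers passed the filter. VWF (41.7 to 121 CPM) and FLT1 (3.52 to 92.8 CPM) made up most of the endothelial sums. CLDN5, CDH5 and ESAM reached at most 0.162, 0.202 and 0.316 CPM. Among the astrocyte markers, AQP4 and ALDH1L1 reached at most 2.62 and 1.08 CPM. Whether these sums come from such cells was not tested. Of the 6 astrocyte markers, only SLC1A2 fell with MRS2578 where the R02046 libraries were exchanged (-1.22 on the log2 scale, adjusted p = 0.0328), against -0.58 (adjusted p = 0.901) as labelled and -1.16 (adjusted p = 0.133) without R02046. The 7 lymphocyte markers summed to at most 0.759 CPM in any library. The part of these cells in the donor differences was not tested.

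Genes that work with these receptors were also read as lists, 91 genes of which passed the filter on low counts. The lists were chosen with earlier results of these data known. Of all genes tested, 52.1% were below 0 with the labels, 49.8% with the exchange and 50.5% without R02046. In edgeR's quasi-likelihood test, 0 of the 91 were called with the labels, and 8 had an unadjusted p under 0.05, where 5.14% of all genes did. After the exchange 0 were called and 20 had such a p, against 16.4% of all genes. Without R02046, 0 of 92 were called and 18 had such a p, against 13.6%. With the labels, DESeq2 and the likelihood ratio test also called 0. With the exchange, the likelihood ratio test called 7 of 91 (2 raised, 5 lowered), where it called 5.08% of all genes, and DESeq2 called 9 of 91 (1 raised, 8 lowered), where it called 4.81%. Both of these tests found HMOX1 raised and TREM1, LAMP3, LGALS3BP, C1QB and TIMD4 lowered. TYRO3 was raised in the likelihood ratio test alone. OLR1, a receptor for oxidised lipoprotein (adjusted p = 0.0471), WASF2, which promotes actin branching (adjusted p = 0.043), and GRN, which encodes progranulin (adjusted p = 0.0314), were lowered in DESeq2 alone. In the TREM2 axis, 12 of 13 genes passed the filter, 6 above and 6 below 0, and the median log2 fold change was -0.01 as labelled. Exchanging the R02046 libraries left 4 above and 8 below 0 (median -0.14), and without R02046 also 4 and 8 (median -0.08). TREM1, an amplifying receptor that also signals through TYROBP, had a mean of 236 ± 127 CPM with uLPS and 205 ± 137 CPM with MRS2578 (SD, n = 4). The fit put TREM1 at -0.39 ± 0.22 on the log2 scale (adjusted p = 0.878). The exchange put TREM1 at -0.60 (adjusted p = 0.0629), and without R02046 it was -0.66 (adjusted p = 0.166). The adaptor HCST had -0.07 (adjusted p = 0.957) with the labels, 0.00214 with the exchange and -0.05 without R02046. The kinase SYK, which binds to phosphorylated TYROBP, had -0.22 (adjusted p = 0.901), -0.37 and -0.39 in the same order.

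Of 23 genes for the recognition of apoptotic cells, 18 passed the filter, 13 above and 5 below 0, with a median of 0.11 with the labels. After the exchange 10 were above and 8 below 0 (median 0.07), as they were without R02046 (median 0.12). This list holds TYRO3 and PROS1, described above, and MFGE8, a bridging protein for integrins, which had a log2 fold change of 0.12 (adjusted p = 0.942) as labelled, 0.30 exchanged and 0.28 without R02046. Of 18 other scavenger receptors, 14 passed, 7 above and 7 below 0, with a median of 0.04. It was 9 above and 5 below (median 0.10) with the exchange, and 9 above and 6 below of 15 (median 0.12) without R02046. SCARB1, the receptor for high density lipoprotein, had 0.08 (adjusted p = 0.931) as labelled, 0.15 exchanged and 0.15 without R02046. SCARB2, a lysosomal membrane protein, had -0.07 (adjusted p = 0.949), -0.11 and -0.12. SCARA3, at no more than 4.32 CPM, had -0.55 ± 0.89 (SE; adjusted p = 0.942), -0.23 and -0.44.

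In the Fc gamma receptor list, 4 of 7 genes were tested: FCGR1A, FCGR2A, FCGR3 and FCER1G, which encodes a signaling chain. All 4 were below 0 under each of the 3 assignments, where 52.1%, 49.8% and 50.5% of all genes were. The assignments share the libraries of R07110, R12016 and R14143, so they are not independent. The median was -0.16 as labelled, -0.16 exchanged and -0.20 without R02046. FCGR1A, the high affinity receptor for IgG, had means of 692 ± 17.6 and 600.1 ± 125 CPM without and with MRS2578 (log2 fold change -0.23, adjusted p = 0.878), with values of -0.23 exchanged and -0.31 without R02046. FCGR2A had -0.00794 (adjusted p = 0.997), -0.16 and -0.11, and FCGR3 had -0.09 (adjusted p = 0.929), -0.16 and -0.17 in the same order. Of 22 genes of the engulfment machinery, 19 passed the filter, 6 above and 13 below 0, with a median of -0.05 with the labels. After the exchange 2 were above and 17 below 0 (median -0.14), where 49.8% of all genes were below 0. Without R02046 it was also 2 and 17 (median -0.12), where 50.5% of all genes were below 0. ELMO1 and ELMO2 are scaffolds that activate Rac with DOCK proteins. ELMO1 had 0.01 (adjusted p = 0.992) as labelled, -0.14 exchanged and -0.08 without R02046. ELMO2 had -0.20 (adjusted p = 0.878), -0.29 and -0.33, and DOCK1 had 0.16 (adjusted p = 0.953), 0.15 and 0.18.

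Of 14 genes of the LAMP family and the phagosome, 13 passed, 6 above and 7 below 0, with a median of -0.01. With the exchange 5 were above and 8 below (median -0.01), and without R02046 6 and 7 (median -0.03). LAMP1, a main protein of the lysosomal membrane like its relative LAMP2, had -0.10 (adjusted p = 0.909) as labelled, -0.10 exchanged and -0.13 without R02046. LAMP2 had 0.09 (adjusted p = 0.907), -0.00152 and 0.06. LAMP3 had -1.66 ± 0.69 (SE; adjusted p = 0.878), -2.07 (adjusted p = 0.0968) and -2.07 (adjusted p = 0.259). LAMP3 was low, at 1.07 and 0.647 CPM with uLPS and MRS2578 in R07110, 4.08 and 0.316 CPM in R12016, 0.107 and 0.512 CPM in R02046, and 1.12 and 0.224 CPM in R14143. All 9 genes for the handling of hemoglobin, heme and iron, downstream of CD163, passed the filter, 8 above and 1 below 0, with a median of 0.06 with the labels. After the exchange 6 were above and 3 below 0 (median 0.23), as they were without R02046 (median 0.16). HMOX1, which degrades heme, was at 447 and 1138 CPM in R07110, 564 and 2011 CPM in R12016, 1056 and 826 CPM in R02046, and 291 and 488 CPM in R14143. The values of HMOX1 were thus higher with MRS2578 in all donors but R02046 (log2 fold change 0.90 ± 0.34 (SE), adjusted p = 0.878). It was 1.07 (adjusted p = 0.0828) exchanged and 1.31 (adjusted p = 0.138) without R02046. The biliverdin reductases BLVRA and BLVRB had 0.05 (adjusted p = 0.959) and 0.18 (adjusted p = 0.932) as labelled, 0.17 and 0.39 exchanged, and 0.15 and 0.38 without R02046. Besides P2RY6, the uracil nucleotide receptor P2RY2 passed the filter, at a log2 fold change of -0.05 (adjusted p = 0.971) as labelled, -0.03 exchanged and -0.05 without R02046.

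**Figure D5:**
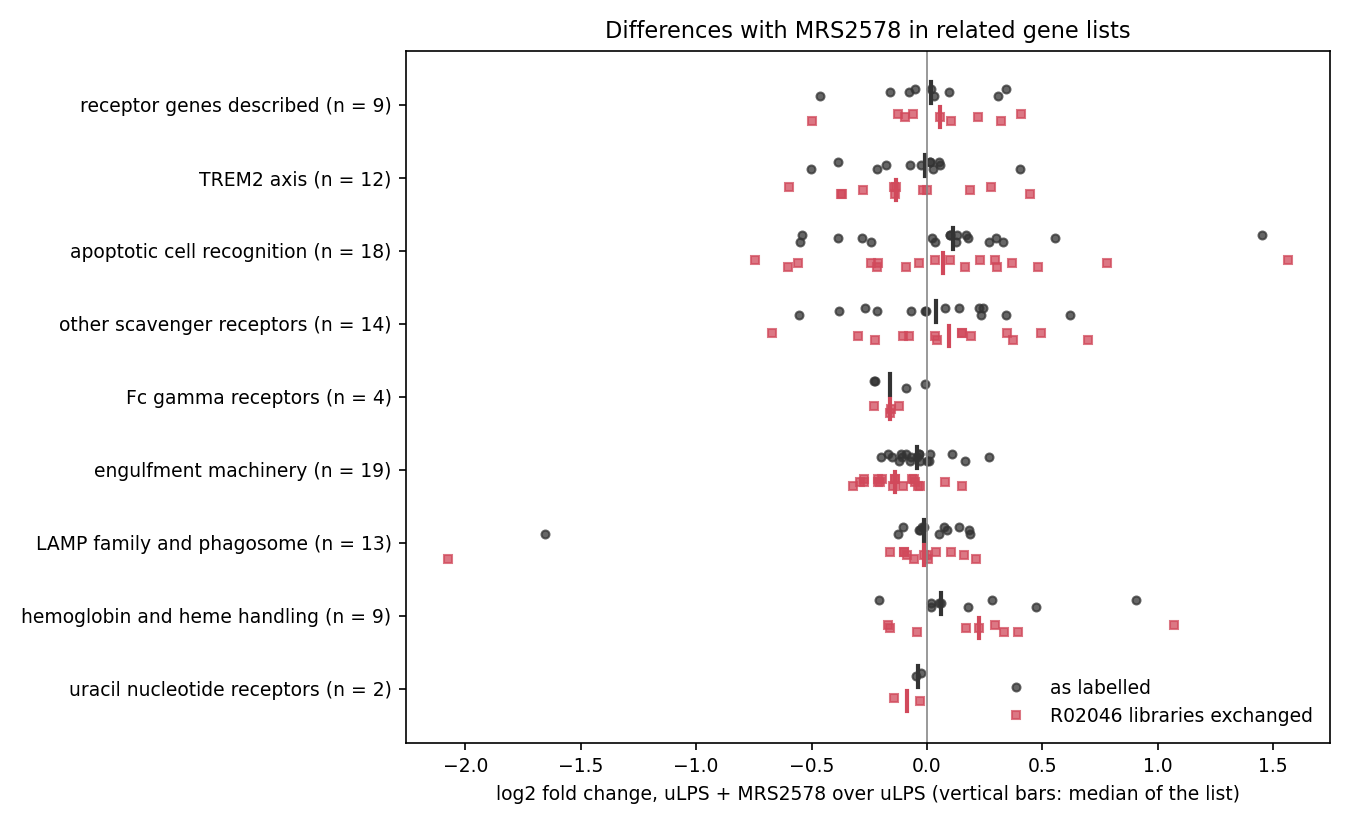
log2 fold change of uLPS with MRS2578 over uLPS for every tested gene of the receptor set and of 8 related lists, with circles for the labels as deposited, squares for the R02046 libraries exchanged and a vertical bar for the median. The medians lie between -0.16 and 0.23, and the points farthest from 0 are TYRO3 on the right and LAMP3 on the left.

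Profiles over the 8 libraries were compared by the root mean square (RMS) difference of log2 CPM after centring each gene, among 11655 genes. Nearest to AXL were IFIT3, SDC3 and LAIR1, at 0.13, 0.13 and 0.13, against a median of 0.72 over all genes. Nearest to GAS6 were DUSP2, SLC43A2 and NDUFA4, at 0.12, 0.18 and 0.19. For MERTK they were SAP18, TNFRSF21 and EEF1AKMT1, at 0.16, 0.17 and 0.18. For TREM2 they were ZBTB46, TRIP6 and FOXP4, at 0.16, 0.19 and 0.19.

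No gene came as close to CD36, for which CCL18, ENSMMUG00000047632 and MBOAT2 lay at 0.59, 0.60 and 0.63, against its own spread of 1.34. For CD68 the nearest were OPTN, DHRS7B and ARNT, at 0.06, 0.08 and 0.09. For TYROBP they were RPL36AL, KRTCAP2 and ENSMMUG00000064618, at 0.08, 0.09 and 0.09. MSR1 (FAM8A1, EXOSC10 and PPP3CC, 0.05 each) and CD163 (USP14, AP3D1 and NUDCD1, 0.05 each) varied little, with spreads of 0.11 and 0.09. The libraries of a donor share an animal, and these likenesses are given as a description.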

How the data were processed

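The authors counted uniquely mapped reads within exons per gene with HTSeq on the macaque genome Mmul_10 and deposited the raw counts, without normalization. The submitters' processing notes name Trimmomatic (version 0.30), TopHat2 (version 2.0.14), SAMtools (version 1.3) and HTSeq (version 0.6.1p1), whereas the methods of the study name fastp and STAR. The libraries were directional, but the strand setting is not given in the sources used here.

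Counts were analysed with edgeR (version 4.0.16) in R (version 4.3.3). Genes were kept by filterByExpr (minimum count 10), scaled by TMM and tested with the quasi-likelihood F-test. The model had a term for each donor, and p-values were adjusted over all genes by Benjamini-Hochberg, with a threshold of 0.05. SE and 95% intervals follow from the test statistic. Donor differences are the joint test of the donor terms. Counting intervals are exact (Clopper-Pearson) and, like the floor of 3 reads, cover counting error only. Pairing comes from the animals, and the deviations of the libraries of a donor from the condition means correlated at 0.458 to 0.602. No libraries were duplicates (chi-square per degree of freedom of at least 19.6). The scripts were tested on simulated data.

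Exon lengths and gene positions were read from NCBI's annotation of Mmul_10 by symbol. The genes named are the receptor set, P2RY6, the first 3 tested genes of each list, any list gene called with the labels or with the R02046 libraries exchanged, and the 3 nearest profiles with a mean of at least 1 CPM. The members and lists were chosen with earlier results of these data known. Alternatives were DESeq2 (version 1.42.0) and its size factors, library sizes alone, edgeR's likelihood ratio test, no block, other filters, each donor left out, another prior count for log2 CPM (0.25 for 2), and the R02046 libraries exchanged. After the data had been seen, combinations of the exchange with other tests or a donor left out, and the earlier quasi-likelihood estimation, were added. Comparisons in supplementary tables of the study were not used, except for matching its columns to the libraries.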

Additional observations from a re-analysis of the deposited data

Results flagged for a closer look

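In 22 groups of 4 libraries (11 genes, the receptor set and P2RY6, in both conditions), the gap of the most extreme library was set against the range of its group, and 2 groups were past Dixon's 95% critical value. Chance gives such a gap in about 1 in 20 groups. AXL in the uLPS library of R12016 was at 304.776 CPM, a gap of 0.859 of the range, and R12016 was also the highest donor with MRS2578. MARCO in the MRS2578 library of R14143 was at 1.11832 CPM, a gap of 0.892 of the range, on 20 reads, and R14143 was also the highest donor with uLPS alone.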

How the results depend on the processing

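With MRS2578, the number of genes called among all tested was 0 in the main analysis, 1 with DESeq2 and 5 with the likelihood ratio test. With the R02046 libraries exchanged it was 75, and 616 with the likelihood ratio test and 583 with DESeq2 added to the exchange. Leaving out 1 donor gave 0 to 918 calls, the highest with the exchange and without R14143. Without the replicate block, 0 genes were called (250 at an unadjusted p of 0.05, against 624), and no call of a receptor gene changed. Donor differences were called in 892 genes, in 2468 with DESeq2, 2773 with the likelihood ratio test and 2288 with the exchange, and in 333 to 3345 with 1 donor left out.

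Over all alternatives of the receptor genes with MRS2578, 141 values kept their direction and side of the threshold, 18 turned and 3 gained a call (AXL with the exchange in both other tests, MERTK with the exchange in the likelihood ratio test). TREM2 was at -0.13 with the exchange, -0.13 with the likelihood ratio test added and -0.14 with DESeq2 added, and at -0.24 to 0.16 with a donor left out. TYROBP was at 0.0586, 0.0583 and 0.0518 in the same order, and at -0.31 to 0.24. With a donor left out, GAS6 was at -0.0582 (without R12016) to 0.38, MSR1 at -0.13 to 0.0262 (without R12016) and CD163 at -0.0466 (without R14143) to 0.14. MSR1 was at 0.0051 with library sizes alone. None of these values passed the test, and the cause was not tested. For the donors, 115 values kept their side, 16 lost and 4 gained it; besides the donors named in the report, MERTK lost it with library sizes alone (adjusted p = 0.0633), no filter (0.0502), 10 counts in every library (0.0551) and the earlier estimation (0.0504). Depth limits MARCO and, at a few reads in some libraries, TYRO3 and LAMP3.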
